A study of Mus musculus with 8 samples.

Results

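The genes that encode the collagen chains were followed through RNA-seq libraries of MC38 tumours. MC38 is a mouse colon adenocarcinoma line, and both groups of tumours were grown from it in C57BL/6J mice. The labels speak of a xenograft, although line and host share a strain background. 4 libraries came from tumours of mice given C26, a compound known here only by its code, at 10 mg/kg every second day over 2 weeks, and 4 libraries came from control tumours. What the control mice received is not given in the sources used here. No source states that each library came from a separate animal, so the p-values may measure only a spread between samples that is in part technical. The collagen chain genes were the protein-coding genes of GENCODE M21 whose symbol is Col, a type number, the letter a and a chain number, which gave 44 members among 56691 gene identifiers, 11 of them fibrillar, 6 of type IV, 6 of type VI and 21 of other types.

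A collagen molecule is a triple helix of 3 chains, built from 1 gene product or from several. Type I and type III collagen form the bulk of the fibrils of connective tissue, types V and XI co-assemble with them and control when fibrils start and how thick they become, type IV forms the sheet-like network of basement membranes, and type VI forms beaded microfibrils around cells. In tumours these chains come mainly from fibroblasts, with endothelial cells and pericytes adding type IV. Because whole tumours were sequenced, fewer or more cells of a type and less or more RNA per cell cannot be told apart.

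Total counts ran from 17075176 to 21517425 per library. Levels are given as CPM, read counts scaled to an equal library total and by TMM factors, which were between 1.02 and 1.03 in the C26 libraries and between 0.968 and 0.987 in the control libraries. Of the 44 members, 30 had enough counts to be tested. The other 14 (Col4a3, Col6a5, Col6a6, Col8a2, Col9a1, Col9a2, Col10a1, Col13a1, Col17a1, Col19a1, Col22a1, Col23a1, Col25a1 and Col26a1) stayed under 1 CPM in all 8 libraries. Col19a1 had a count of 0 in all 8 libraries, which over a group allows up to 0.0385 CPM in C26 tumours and 0.038 CPM in control tumours for counting error only. Of 8 epithelial markers, 7 were under 1 CPM in all 8 libraries, including Epcam, Krt8 and Krt18, so the colon origin on the label was not seen in these defining genes. Their summed level was 2.75 to 3.6 CPM in C26 tumours and 2.73 to 4.59 CPM in control tumours.

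Collagen chain mRNA was higher in C26 tumours, and the genes past the test were mostly the type V and type XI chains. The 5 genes of types V and XI did not rise more than collagen as a whole. The ratio between their mean sums was 1.39, and they held 11.5% of the collagen chain CPM in both groups. Together the 44 genes took 1.31 ± 0.211% of counts in C26 tumours and 0.893 ± 0.123% in control tumours (SD, n = 4 each), a ratio of 1.4 between the summed CPM, and the lowest C26 library was above the highest control library. 6 of the 30 tested members (20%) rose at an adjusted p under 0.05 in edgeR's quasi-likelihood test, against 3.64% of all 15755 tested genes called higher. They were Col5a1, Col5a2, Col5a3, Col11a1, Col4a1 and Col6a3, with rises of 1.29-fold to 1.44-fold. None fell, in edgeR, DESeq2 or limma-voom, against 4.12% of all tested genes called lower in edgeR. At an unadjusted p under 0.05, edgeR gave 14 members higher and 0 lower (13.1% and 12.4% of all tested genes), DESeq2 17 and 0, and limma-voom 13 and 1. The fitted log2 fold change was above 0 for 26 of the 30 members, with a median of 0.36, against 51.0% of all tested genes and a median of 0.005. All 4 C26 libraries stood above all 4 control libraries for 9 members, as for 7.91% of all tested genes, and below them for 1 member, Col20a1, as for 8.14% of all tested genes.

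**Figure D1:**
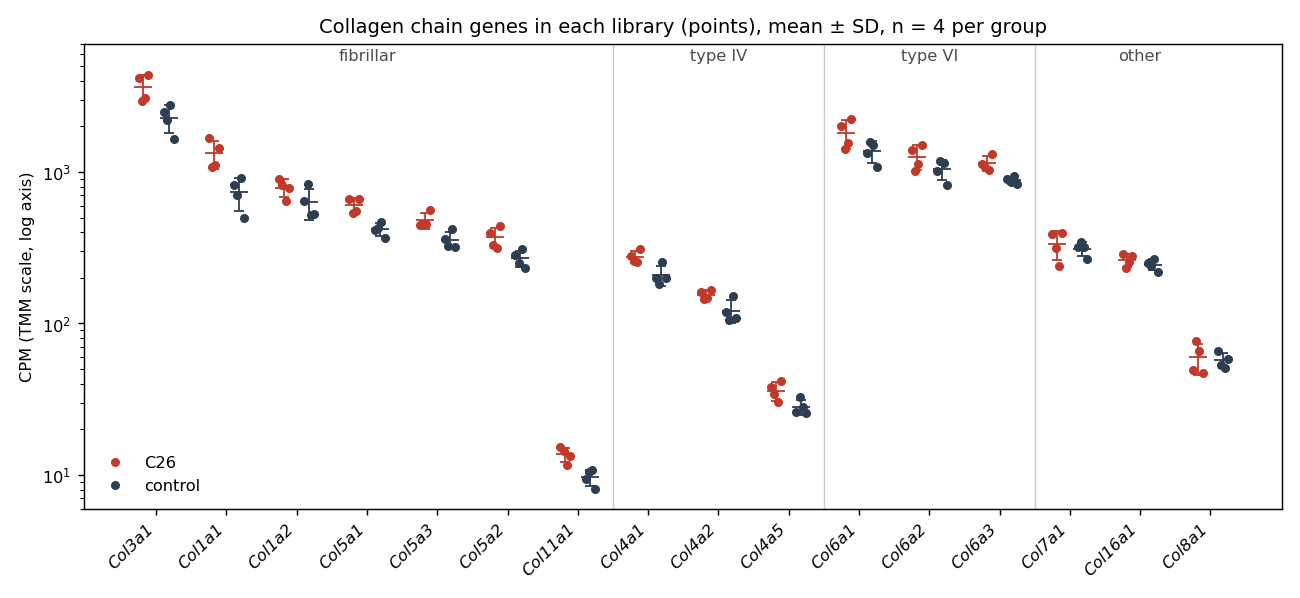
CPM on the TMM scale (log axis) of 16 collagen chain genes in each library, by class, with C26 libraries left of control libraries; points are libraries and bars are the mean ± SD (n = 4 each). Of the 7 fibrillar genes drawn, Col1a2 is the one whose groups overlap, and the groups also overlap for all 3 genes drawn from the other collagens.

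The fibrillar genes held the most collagen reads of the 4 classes. Their summed level was 8377, 6290.1, 6257 and 8366 CPM in C26 libraries 1 to 4, against 5101, 4829, 5493 and 3660.2 CPM in control libraries 1 to 4. The groups did not overlap, C26 libraries 1 and 4 were the highest and control library 4 the lowest. All 11 members were tested, all 11 had a log2 fold change above 0 with a median of 0.50, and 4 passed the test. Over all tested genes 51.0% were above 0 and 3.64% were called higher. The class made up 57.3% of the collagen chain CPM in C26 tumours and 52.1% in control tumours. Per kilobase of merged exons its share of the summed level was 50.1% in C26 tumours and 44.8% in control tumours, and type VI followed at 40.0% in C26 tumours and 43.2% in control tumours. Per kilobase of the principal transcript the fibrillar share was 53.5% in C26 tumours and 48.4% in control tumours. The type VI share was then 38.1% in C26 tumours and 41.5% in control tumours.

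Col5a1 encodes the chain present in nearly all type V molecules, and it lies at chr2:27886425-28039514 of GRCm38. It measured 659, 537, 551 and 666 CPM in C26 libraries 1 to 4, against 417, 429.7, 468 and 364 CPM in control libraries 1 to 4. The groups stood apart, and the lowest C26 library was above the highest control library. Its log2 fold change was 0.52 ± 0.091 (SE; adjusted p = 0.00419, edgeR's quasi-likelihood test). Col5a1 stayed past the threshold in all 18 alternative settings tried, with a highest adjusted p of 0.0303. Its exons share 99 and 113 bases with 2 noncoding genes on the opposite strand, 1.17% and 1.33% of their length.

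Col5a2, the partner of Col5a1 in the common type V trimer, lies at chr1:45374321-45503282. Its level was 398, 332, 315 and 438 CPM in C26 libraries 1 to 4, against 283, 251, 309 and 232 CPM in control libraries 1 to 4. The groups came close without overlapping, C26 library 3 standing just above control library 3. The log2 fold change was 0.46 ± 0.111 (SE; edgeR adjusted p = 0.0241), and the call was lost on leaving out C26 library 1, C26 library 4 or control library 2 and after correcting for the length and GC content of transcripts (offsets fitted in each library). Over the 18 settings its adjusted p reached 0.121 and its log2 fold change stayed between 0.34 and 0.73.

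Col5a3, a less common type V chain, lies at chr9:20770050-20815067. It had 444, 456.5, 452 and 565 CPM in C26 libraries 1 to 4, against 363, 323, 418 and 318 CPM in control libraries 1 to 4. The groups did not overlap, and C26 library 4 was far above the other C26 libraries, which lay close together. Its log2 fold change was 0.43 ± 0.098 (SE; edgeR adjusted p = 0.0169). The call was lost without control library 2 and in a fit that took the level of skeletal muscle genes as a covariate, where its log2 fold change was larger, at 0.61, with an adjusted p of 0.0555.

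Col11a1 encodes a chain of type XI collagen, which is best known from cartilage and is also made by activated fibroblasts. The gene lies at chr3:114030540-114220718 and was expressed at a far lower level than the type V genes. It had 15.2, 14.4, 11.7 and 13.3 CPM in C26 libraries 1 to 4, against 9.42, 10.4, 10.7 and 8.05 CPM in control libraries 1 to 4, with no overlap. Its log2 fold change was 0.50 ± 0.125 (SE; edgeR adjusted p = 0.0252). The call was lost on leaving out C26 library 2, control library 1 or control library 4, and with the muscle covariate or the length and GC offsets, and its adjusted p reached 0.256 with the muscle covariate, at a log2 fold change of 0.45. Of the cartilage markers, Acan, Matn1 and Cnmd were under 1 CPM in all 8 libraries and Sox9, a transcription factor that is also active outside cartilage, fell to 67.2 ± 9.8 CPM in C26 tumours, against 93.7 ± 14 CPM in control tumours (edgeR adjusted p = 0.0285).

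Col1a1 and Col3a1 had larger fold changes than the type V genes with larger standard errors, and none of the type I and type III genes passed. Col1a1 (chr11:94936224-94953042) had 1683, 1078, 1118 and 1434 CPM in C26 libraries 1 to 4, against 817, 706, 912 and 496 CPM in control libraries 1 to 4. The groups did not overlap, and C26 library 1 and control library 4 lay at the far ends. Col1a1 had a log2 fold change of 0.86 ± 0.217 (SE), or 1.81-fold, with an edgeR adjusted p of 0.0539. Col1a1 passed in 5 of the 18 settings, including DESeq2, the replicate block and the fit without control library 4.

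Col3a1 (chr1:45311538-45349706), the single chain of type III collagen, had 4164, 2960.4, 3085 and 4347 CPM in C26 libraries 1 to 4. It had 2497, 2191, 2767 and 1658 CPM in control libraries 1 to 4. Again C26 libraries 1 and 4 were the highest, control library 4 was the lowest and the groups did not overlap. The log2 fold change was 0.68 ± 0.181 (SE; edgeR adjusted p = 0.0557), and Col3a1 passed in 6 of the 18 settings, including the fits without control library 3 and without control library 4. Col1a2 (chr6:4504814-4541544), the second chain of type I collagen, had 901, 824, 648 and 780.1 CPM in C26 libraries 1 to 4, against 642, 834, 522 and 526 CPM in control libraries 1 to 4. These groups overlapped, with control library 2 inside the C26 range. The log2 fold change was 0.32 ± 0.155 (SE; edgeR adjusted p = 0.227), and Col1a2 passed in 3 of the 18 settings, which were no low-count filter, the replicate block (adjusted p = 0.0447) and the fit without control library 2.

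The other 4 fibrillar genes did not pass. Col27a1 had 94.7 ± 20.2 CPM in C26 tumours and 71.4 ± 13.2 CPM in control tumours (SD, n = 4 each). Col2a1, Col11a2 and Col24a1 were between 0.363 and 4.43 CPM in all 8 libraries, with log2 fold changes of 0.67, 0.15 and 0.69. Levels this low rest on few counts, and only the groups of Col24a1 did not overlap.

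The RefSeq promoter table (GRCm38.p6) held an entry for 35 of the 44 members, and Col1a1 and Col5a2 were among the 9 without one. The 150 bases before the start are shown for the called fibrillar genes that had an entry, for Col6a3, whose call survived the most settings after Col5a1, and for Col3a1, the most abundant fibrillar gene, which did not pass. Each is written 5′ to 3′ on the strand of its gene. Capitals mark matches, on either strand, to the GC box (GGGCGG), the CCAAT box (CCAAT), the TATA box (TATAAA), the SMAD-binding element core (CAGAC) or the AP-1 site (TGANTCA), none of which overlapped another.
Col5a1, chr2:27886275-27886424, plus strand: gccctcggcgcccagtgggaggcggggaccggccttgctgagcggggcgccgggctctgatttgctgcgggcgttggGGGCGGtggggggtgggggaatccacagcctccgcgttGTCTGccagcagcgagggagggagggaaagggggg
Col5a3, chr9:20815068-20815217, minus strand: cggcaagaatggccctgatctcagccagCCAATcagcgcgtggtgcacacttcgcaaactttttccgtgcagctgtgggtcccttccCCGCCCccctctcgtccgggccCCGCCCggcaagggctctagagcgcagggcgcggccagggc
Col11a1, chr3:114030390-114030539, plus strand: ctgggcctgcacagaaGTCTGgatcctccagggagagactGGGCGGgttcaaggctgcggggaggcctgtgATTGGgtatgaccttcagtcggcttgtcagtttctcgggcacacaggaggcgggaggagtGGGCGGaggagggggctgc
Col6a3, chr1:90843972-90844121, minus strand: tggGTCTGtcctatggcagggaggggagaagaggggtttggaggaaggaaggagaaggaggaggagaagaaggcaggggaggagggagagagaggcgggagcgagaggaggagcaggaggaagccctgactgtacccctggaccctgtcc
Col3a1, chr1:45311388-45311537, plus strand: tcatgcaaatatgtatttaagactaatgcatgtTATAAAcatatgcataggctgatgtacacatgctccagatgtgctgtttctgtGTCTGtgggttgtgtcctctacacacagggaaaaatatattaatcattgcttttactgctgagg

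The windows shown for called genes were rich in G and C, with a GC content of 74.7% for Col5a1, 68.7% for Col5a3, 64.7% for Col11a1 and 62.7% for Col6a3. The window of Col4a1, called and not shown, was at 74.7% and held no GC box. A high GC content was not particular to called genes. The windows of tested members that were not called ran from 37.3% for Col3a1 to 74.7% for Col16a1. The median over all promoters in the table was 54.0%. Col3a1 was also the only one of the 5 with TATAAA in its window, while Col5a1, Col5a3 and Col11a1 held the GC box. Over the 26 promoters of 24 tested members, 13 held the GC box (50.0%), against 28.6% of all 32851 promoters. The full set also holds promoters of genes that were not tested here, so the 2 sets are unlike. CCAAT was in 6 of the 26 (23.1%) against 24.5% of all, and CAGAC was in 8 (30.8%) against 27.7% of all. TATAAA was in 2 (7.69%) against 7.57% of all, and TGANTCA was in 1 (3.85%) against 4.24% of all. These are matches of letters in a short window and say nothing of whether a factor was bound.

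**Figure D2:**
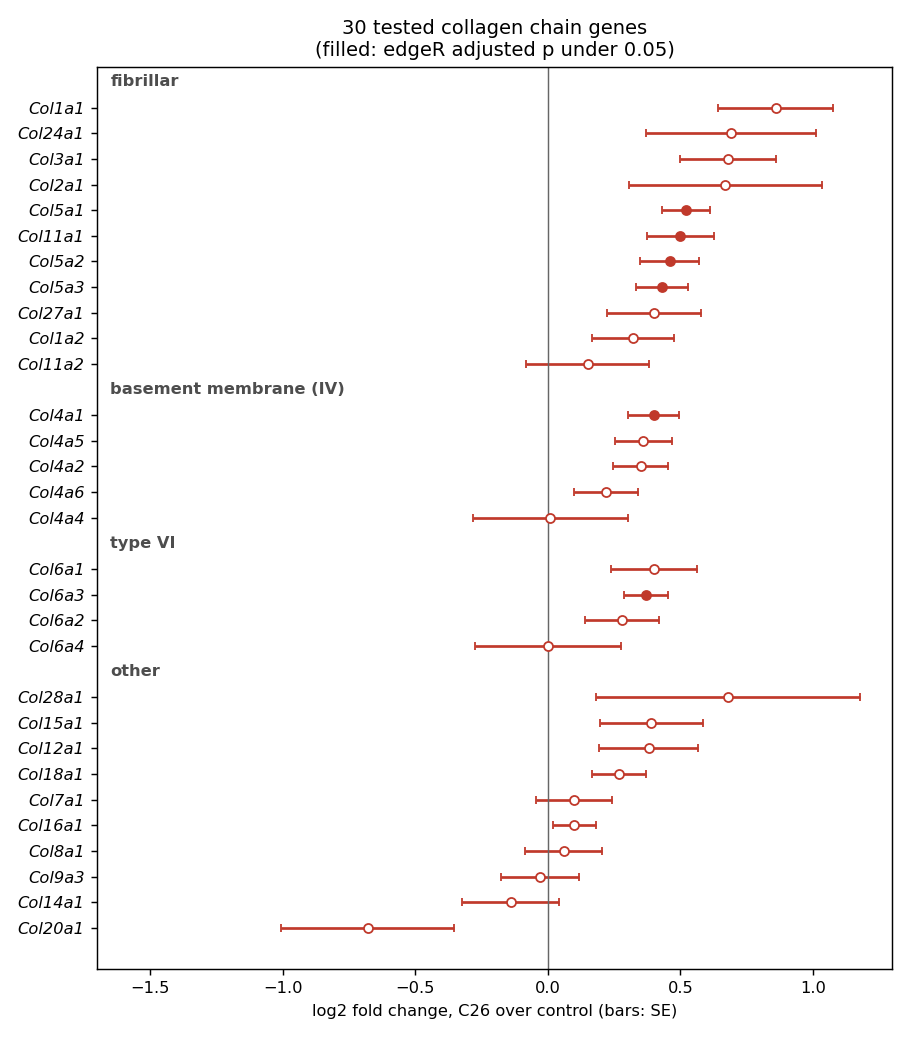
Log2 fold change (C26 over control, bars are the SE) of the 30 tested collagen chain genes by class, with genes past an edgeR adjusted p of 0.05 filled. 26 of the 30 lie above 0, all 11 fibrillar genes among them, and the 6 filled genes lie between 0.37 and 0.52.

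The type IV genes, for basement membrane collagen, had a mean sum 1.3 times as high in C26 tumours as in control tumours, against 1.53 times for the fibrillar genes, and 1 of the 5 tested passed. The summed level of the 6 type IV genes was 488, 448, 442 and 528 CPM in C26 libraries 1 to 4, against 357, 328, 443 and 342 CPM in control libraries 1 to 4. Control library 3 was as high as C26 library 3, and the other control libraries were below all C26 libraries. All 5 tested members had a log2 fold change above 0 with a median of 0.35, against 51.0% of all tested genes above 0 and 3.64% called higher.

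Col4a1 (chr8:11198423-11312826), one of the pair of chains found in nearly every basement membrane, had 278, 258, 254 and 308 CPM in C26 libraries 1 to 4. It had 201, 182, 253 and 198 CPM in control libraries 1 to 4. The groups were narrowly separate, since control library 3 fell just short of the lowest C26 library. On the log2 scale Col4a1 rose by 0.40 ± 0.096 (SE; edgeR adjusted p = 0.0218), and the call was lost on leaving out C26 library 4 or any of control libraries 1, 2 and 4, with a highest adjusted p of 0.0692.

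Col4a2 (chr8:11312805-11449287), its partner in the trimer, had 162, 145, 147 and 166 CPM in C26 libraries 1 to 4, against 119.5, 105, 153 and 109 CPM in control libraries 1 to 4. Control library 3 lay inside the C26 range. The log2 fold change was 0.35 ± 0.103 (SE; edgeR adjusted p = 0.0515), and Col4a2 passed in 6 of the 18 settings, including DESeq2, limma-voom, the replicate block (adjusted p = 0.0425) and the fit without control library 3. The Col4a1 and Col4a2 genes lie head to head and their annotated ends overlap by 22 bases, so reads there cannot be placed without strand.

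Col4a5 (chrX:141475385-141689234), a chain of the networks in some specialised basement membranes, had 38.3, 34, 30.1 and 41.8 CPM in C26 libraries 1 to 4. It had 26, 32.6, 28 and 25.7 CPM in control libraries 1 to 4. Only control library 2 reached into the C26 range. The log2 fold change was 0.36 ± 0.107 (SE; edgeR adjusted p = 0.051), and Col4a5 passed in 7 of the 18 settings, including DESeq2, total library size and the fits without C26 library 3 or control library 2. Col4a6 had 9.80 ± 0.653 CPM in C26 tumours and 8.42 ± 0.771 CPM in control tumours (edgeR adjusted p = 0.278), and Col4a4 had 0.973 CPM in C26 tumours and 0.977 CPM in control tumours.

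Of the type VI genes, Col6a3 passed and its partners Col6a1 and Col6a2 did not. The class sum was 4555, 3507, 3708 and 5077 CPM in C26 libraries 1 to 4, against 3249, 3618, 3592.5 and 2731 CPM in control libraries 1 to 4. C26 libraries 1 and 4 were above all control libraries, and C26 library 2 was below control libraries 2 and 3. Col6a5 and Col6a6 were not tested, and Col6a4 had 1.71 CPM in both groups.

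Col6a3 (chr1:90765923-90843971), the longest of the common type VI chains, had 1137, 1075, 1025 and 1319 CPM in C26 libraries 1 to 4. It had 905, 859.5, 941 and 829 CPM in control libraries 1 to 4. The control libraries lay close together and all C26 libraries stood above them. On the log2 scale Col6a3 rose by 0.37 ± 0.0817 (SE; edgeR adjusted p = 0.0146). Col6a3 lost its call in 1 of the 18 settings, the length and GC offsets, where adjusted p was 0.0794.

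Col6a1 (chr10:76708792-76726168) had 2011, 1419.5, 1559 and 2242 CPM in C26 libraries 1 to 4, against 1335, 1576, 1499 and 1073 CPM in control libraries 1 to 4. Col6a2 (chr10:76595762-76623630) had 1405, 1012, 1122 and 1514 CPM in C26 libraries 1 to 4, against 1008, 1180.3, 1150.2 and 827 CPM in control libraries 1 to 4. Both genes were high in C26 libraries 1 and 4, with C26 libraries 2 and 3 inside the control range or next to it. Their log2 fold changes were 0.40 ± 0.162 and 0.28 ± 0.141 (SE), and neither passed in edgeR (adjusted p = 0.158 and 0.244). Both passed with no low-count filter and on leaving out C26 libraries 2 and 3 together, and Col6a1 also passed in DESeq2.

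**Figure D3:**
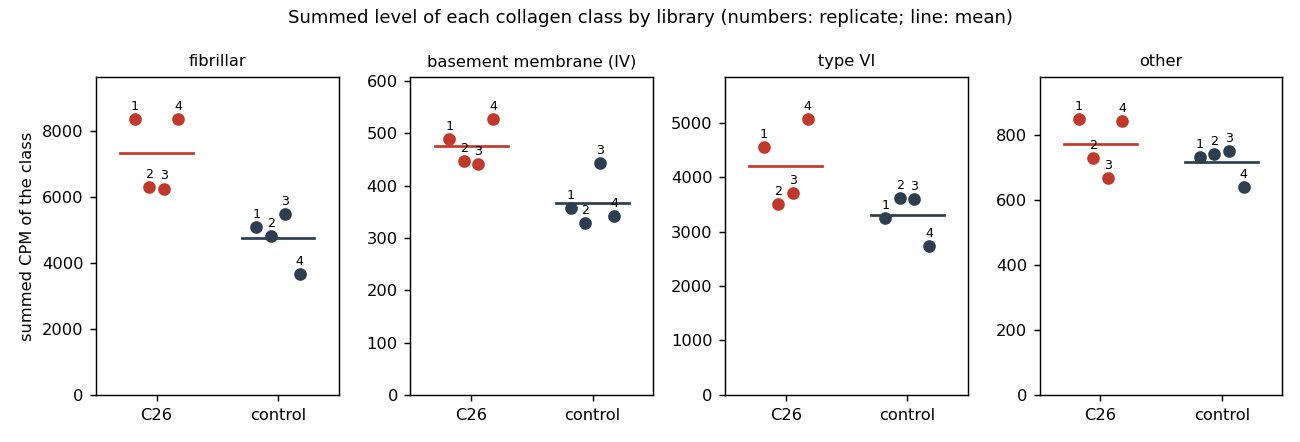
Summed CPM of each collagen class in each library (axes from 0), with C26 left of control, the library number over each point and the mean as a line. C26 libraries 1 and 4 are the highest in every panel, and the fibrillar panel is the one in which the groups do not overlap.

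The remaining 21 genes, for collagens that decorate fibrils, anchor epithelia, span membranes or form short networks, differed least between the groups, with a ratio of 1.08 between the mean sums. Their summed level was 852, 730.0, 668 and 846 CPM in C26 libraries 1 to 4, against 733, 743, 753 and 640.0 CPM in control libraries 1 to 4. C26 library 3 was lower than 3 of the control libraries. Of the 10 tested members none passed in edgeR, DESeq2 or limma-voom. At an unadjusted p under 0.05 edgeR gave 1 higher and 0 lower, DESeq2 3 and 0, and limma-voom 3 and 1. Over all tested genes edgeR gave 13.1% higher and 12.4% lower at that p. The median log2 fold change of the 10 was 0.10.

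Col7a1 (chr9:108953586-108984875), the chain of the anchoring fibrils under epithelia, had 388, 313, 240.5 and 393 CPM in C26 libraries 1 to 4. It had 319, 343, 319 and 268 CPM in control libraries 1 to 4. C26 library 3 was the lowest of all and the groups overlapped, and its log2 fold change, 0.10 ± 0.143 (SE; edgeR adjusted p = 0.721), ran from -0.04 to 0.32 over the settings. The keratinocyte markers Krt5 and Krt14 and the other 3 on that list were under 1 CPM in all 8 libraries.

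Col16a1 (chr4:130047840-130099283), which is found on fibril surfaces, had 286, 231, 255 and 279 CPM in C26 libraries 1 to 4, against 250.5, 241, 268 and 219 CPM in control libraries 1 to 4. Col8a1 (chr16:57624258-57754737), of the short-chain networks of vessel walls, had 49.5, 76.1, 65.5 and 47.3 CPM in C26 libraries 1 to 4, against 66, 53.4, 51.1 and 57.9 CPM in control libraries 1 to 4. Both pairs of groups overlapped, and for Col8a1 the order was turned round, since C26 libraries 1 and 4 were its lowest. Their log2 fold changes were 0.10 ± 0.0823 and 0.06 ± 0.146 (SE), with edgeR adjusted p of 0.47 and 0.827, and that of Col8a1 ran from -0.31 to 0.16 over the settings.

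Among the rest, Col18a1 had 53.9 ± 8.87 CPM in C26 tumours and 44.8 ± 2.83 CPM in control tumours (SD, n = 4 each; edgeR adjusted p = 0.117). Col12a1, Col14a1 and Col15a1 lay between 7.51 and 28.8 CPM in all 8 libraries, with log2 fold changes of 0.38, -0.14 and 0.39. Col20a1, chosen here after its values were seen because its groups were separate in the lower direction, had 0.791, 0.466, 0.774 and 0.405 CPM in C26 libraries 1 to 4, against 1.32, 0.844, 0.839 and 0.908 CPM in control libraries 1 to 4. Col20a1 rests on few counts and did not pass (log2 fold change -0.68 ± 0.326, SE; edgeR adjusted p = 0.203).

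Levels of different chains were compared per kilobase. Per kilobase of merged exons, the highest genes were Col6a1 at 412.7 CPM in C26 tumours and 313.0 CPM in control tumours, Col3a1 at 370.7 CPM in C26 tumours and 232.1 CPM in control tumours, and Col1a1 at 202.4 CPM in C26 tumours and 111.6 CPM in control tumours. Per kilobase of the principal transcript, Col3a1 came first at 654.1 CPM in C26 tumours and 409.5 CPM in control tumours, followed by Col6a1 at 440.9 CPM in C26 tumours and 334.3 CPM in control tumours, so the order of these 2 genes depends on the length used. Col1a2 moved from place 8 per kilobase of its 12426 merged exon bases to place 5 per kilobase of its 5348 base transcript in C26 tumours. Col5a1 was at 71.1 CPM per kilobase of merged exons in C26 tumours and 49.4 CPM in control tumours, under Col1a1 and Col3a1 and close to Col1a2, which was at 63.4 CPM in C26 tumours and 50.8 CPM in control tumours on this length. Per kilobase of the principal transcript Col5a1 was well under Col1a2, at 71.8 against 147.4 CPM in C26 tumours and 49.9 against 118.0 CPM in control tumours.

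Ratios between chains within a library do not depend on the scaling between libraries. Each was a ratio of read counts, 8 were compared, and 4 against 4 libraries allow 70 arrangements with a smallest exact two-sided permutation p of 0.0286. With 8 ratios, 5 would have to reach that p for any adjusted p to be under 0.05, so this design could not easily pass. Col3a1/Col1a1, Col5a1/Col1a1 and Col6a1/Col6a2 reached it, each with an adjusted p of 0.0762.

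Col5a1/Col1a1 was 0.392, 0.498, 0.493 and 0.465 in C26 libraries 1 to 4, against 0.511, 0.609, 0.513 and 0.735 in control libraries 1 to 4. The groups did not overlap, and the mean log2 difference was -0.35 (exact permutation p = 0.0286). Col3a1/Col1a1 was 2.47, 2.75, 2.76 and 3.03 in C26 libraries 1 to 4, against 3.06, 3.1, 3.03 and 3.35 in control libraries 1 to 4, with a log2 difference of -0.19. C26 library 4 and control library 3 were equal to 2 decimals here. Col5a1 and Col3a1 mRNA was thus lower relative to Col1a1 in all 4 C26 libraries, at differences that did not pass the adjustment. Both ratios share Col1a1, whose log2 fold change was 0.86, against 0.68 for Col3a1 and 0.52 for Col5a1. That of Col1a2, the other type I chain, was below all of these at 0.32. Ratios to Col1a2 were not taken for these genes, so nothing is shown relative to type I collagen as a whole. Col6a1/Col6a2 was 1.43, 1.4, 1.39 and 1.48 in C26 libraries 1 to 4, against 1.33, 1.33, 1.3 and 1.3 in control libraries 1 to 4, a log2 difference of 0.12.

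Col1a1/Col1a2 was 1.87, 1.31, 1.72 and 1.84 in C26 libraries 1 to 4, against 1.27, 0.847, 1.75 and 0.942 in control libraries 1 to 4. C26 library 2 and control library 3 crossed over, and the log2 difference of 0.53 had an exact permutation p of 0.0857 (adjusted p = 0.171). Partner chains of type IV and type V differed little in ratio. Col4a1/Col4a2 ran from 1.72 to 1.85 in C26 tumours and from 1.65 to 1.81 in control tumours, and Col5a1/Col5a2 from 1.52 to 1.75 in C26 tumours and from 1.47 to 1.71 in control tumours. The log2 differences of these 2 ratios were 0.04 and 0.06 (exact permutation p = 0.286 and 0.371), and they stayed between 0.02 and 0.07 and between 0.03 and 0.10 when single libraries were left out. Col4a5/Col4a1 and Col6a3/Col6a1 had log2 differences of -0.05 and -0.03, with overlapping groups.

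**Figure D4:**
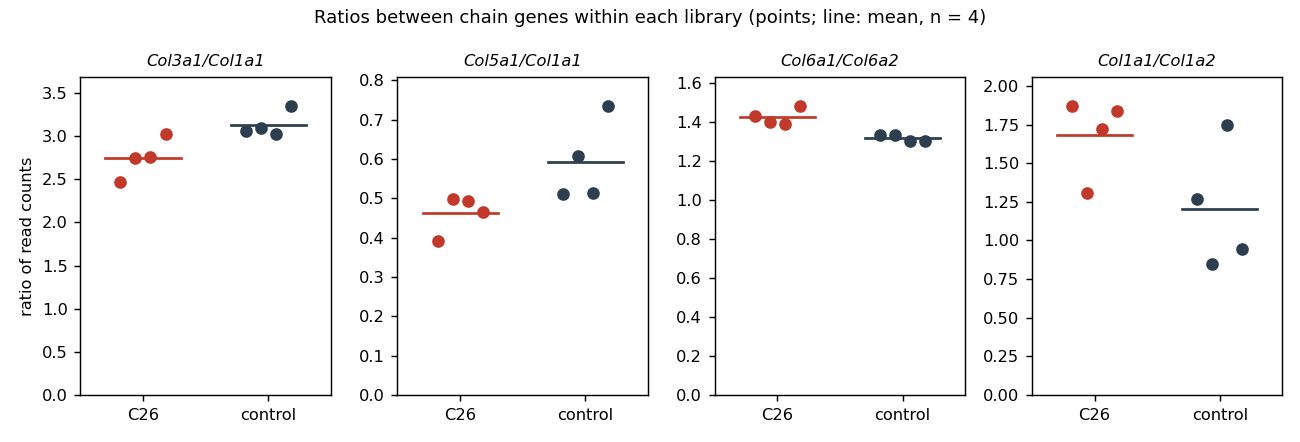
Ratio of read counts between pairs of chain genes within each library (points, axes from 0), with C26 left of control and the mean as a line (n = 4 each). The groups do not overlap for Col3a1/Col1a1, Col5a1/Col1a1 and Col6a1/Col6a2, and they overlap for Col1a1/Col1a2.

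Some partner genes are neighbours in the genome. Of 8 adjacent pairs, 4 had both genes tested, and in each of these both log2 fold changes were above 0. Col4a1 and Col4a2 had 0.40 and 0.35, Col6a1 and Col6a2, 85161 bases apart on the same strand, had 0.40 and 0.28, and Col4a5 and Col4a6, head to head and 1308 bases apart, had 0.36 and 0.22. Col3a1 and Col5a2, tail to tail and 24614 bases apart, had 0.68 and 0.46. The pair of Col6a4 and Col6a5 and those of Col4a3 with Col4a4, Col6a5 with Col6a6 and Col9a1 with Col19a1 held a gene that was not tested.

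The libraries of a group were not alike in collagen. Over the 21 members at a mean of at least 10 CPM, C26 library 4 was the highest of its group for 14 and C26 library 1 for 5, while C26 library 3 was the lowest for 9 and C26 library 2 for 7. Among control libraries, library 3 was the highest for 14 and library 4 the lowest for 15. The fibroblast markers had a summed level over 10 genes of 1224, 976, 898 and 1284 CPM in C26 libraries 1 to 4, against 928, 826, 1092.5 and 747 CPM in control libraries 1 to 4, and these groups overlapped. From high to low, the fibroblast sums put the C26 libraries in the order 4, 1, 2, 3 and the fibrillar sums in the order 1, 4, 2, 3, while both put the control libraries in the order 3, 1, 2, 4.

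Of the 10 fibroblast markers 1 passed, Postn, a matrix protein of activated fibroblasts, with 165, 94.2, 73.4 and 129.8 CPM in C26 libraries 1 to 4 and 43, 42.3, 57.7 and 33.8 CPM in control libraries 1 to 4 (edgeR adjusted p = 0.0388). Pdgfra had 139.7 ± 32.4 CPM in C26 tumours and 101 ± 14.3 CPM in control tumours (edgeR adjusted p = 0.119), and Dcn had 401 ± 91 CPM in C26 tumours and 338 ± 64 CPM in control tumours (edgeR adjusted p = 0.441). Over the 10 markers the median log2 fold change was 0.22, with 8 above 0 and Thy1 and Pdpn at -0.10 and -0.01. For this and the marker lists that follow, the shares over all tested genes were 51.0% above 0 and 3.64% called higher. Endothelial markers summed to 85.2 to 101.4 CPM in C26 tumours and 55.7 to 95.5 CPM in control tumours over 8 genes. Of the 7 tested, 6 had a log2 fold change above 0 and Cldn5 was at -0.03. Only Tek, a receptor of endothelial cells, passed (2.88 ± 0.25 CPM in C26 tumours and 1.54 ± 0.258 CPM in control tumours; edgeR adjusted p = 0.0168). Pericyte and smooth muscle markers summed to 61.1 to 100.3 CPM in C26 tumours and 34.9 to 61.2 CPM in control tumours over 7 genes. Des, which skeletal muscle also makes and which was singled out after its values were seen, held 48.3 CPM of the highest of these sums, in the muscle-rich C26 library 2. Without Des the sums were 56.8, 52.1, 45.3 and 50.8 CPM in C26 libraries 1 to 4, against 41.9, 38.0, 56.2 and 33.3 CPM in control libraries 1 to 4, and the groups overlapped. Of the 7 markers 6 had a log2 fold change above 0 and Cspg4 was at -0.12. Only Rgs5 passed (19 ± 3.29 CPM in C26 tumours and 11 ± 2.6 CPM in control tumours; edgeR adjusted p = 0.00953). In both of these lists control library 3, the control library highest in type IV collagen, had the highest control sum. The part of these cells in the collagen levels was not tested.

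Skeletal muscle mRNA differed between libraries by far more. The 15 muscle genes summed to 53.5, 785, 175 and 30.7 CPM in C26 libraries 1 to 4, against 12.4, 51.6, 12 and 11.1 CPM in control libraries 1 to 4. The C26 libraries with the most muscle mRNA, 2 and 3, had the lower fibrillar sums of their group. Without them, 12 of 32 tested collagen genes passed, including all 6 of the full comparison, and 2.48% of all tested genes were called higher. Leaving out the C26 libraries lower in fibrillar collagen widens the fibrillar difference by itself, so this count is no separate support. With the muscle level as a covariate 4 passed, without Col11a1 and Col5a3, and 0.444% of all tested genes were called higher. The log2 fold changes were not smaller on the whole in that fit, with a median of 0.49 over the 30 tested members against 0.36 without the covariate. Of 5 adipocyte markers, Adipoq, Plin1, Cidec and Lep were under 1 CPM in all 8 libraries, and the list's sum, 34.9 to 51.7 CPM in C26 tumours and 34.9 to 48.1 CPM in control tumours, was nearly all Fabp4, which endothelial cells and macrophages also express. Leukocyte markers summed to 163 to 233.4 CPM in C26 tumours and 174.9 to 248 CPM in control tumours.

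The genes that fold, export, trim, crosslink, bind and cut collagen were called in a minority of members. 65 such genes were listed and 54 tested, of which 10 rose. None fell in edgeR or DESeq2 and 1 fell in limma-voom, Timp1, an inhibitor of matrix proteases. At an unadjusted p under 0.05, edgeR gave 18 higher and 1 lower, DESeq2 the same counts, and limma-voom 18 and 2. For comparison, 3.64% of all tested genes were called higher at the adjusted threshold in edgeR. At the unadjusted one 13.1% were higher and 12.4% lower. With the muscle level as a covariate 2 of the 10 calls were left, Loxl1 and Mmp2, and 0.444% of all tested genes were called higher. For these genes too, this fit does not separate muscle from treatment. Most of the genes that lost their call there kept or exceeded their log2 fold change, as Fkbp14 did at 0.96 against 0.74, Bmp1 at 0.54 against 0.33, Sec24d at 0.50 against 0.35 and Lox at 0.88 in both, while Timp3 was at 0.75 against 1.13 and P3h2 at 0.44 against 0.55. With the length and GC offsets 4 genes passed, and 1.16% of all tested genes were called higher.

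Crosslinking enzymes had the highest median, 0.53 over 5 tested genes, with Lox and Loxl1 past the threshold. Both oxidise lysines of collagen so that fibrils become covalently linked. Lox had 24.8, 27, 35.9 and 21.4 CPM in C26 libraries 1 to 4, against 14.4, 10.3, 18.4 and 16.3 CPM in control libraries 1 to 4 (log2 fold change 0.88 ± 0.186, SE; edgeR adjusted p = 0.0184). The groups did not overlap, and the highest C26 library for Lox was 3, the one that was low in collagen. Lox lost its call without C26 library 2, without control library 1 and in 3 other settings. Loxl1 had 64.7, 45, 44 and 53.3 CPM in C26 libraries 1 to 4, against 37, 36.5, 37 and 32.9 CPM in control libraries 1 to 4. Its groups did not overlap and it passed in all 18 settings (log2 fold change 0.53 ± 0.108, SE; edgeR adjusted p = 0.0103).

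Of 18 tested folding and modification genes 3 rose, and the median log2 fold change was 0.07. Fkbp14, a prolyl isomerase of the endoplasmic reticulum, had 11.7, 9.43, 8.79 and 13.7 CPM in C26 libraries 1 to 4, against 5.18, 7.18, 8.19 and 5.51 CPM in control libraries 1 to 4 (edgeR adjusted p = 0.0187). P3h1 and P3h2, which hydroxylate prolines of collagen at the 3 position, rose by log2 fold changes of 0.30 and 0.55 (edgeR adjusted p = 0.0482 and 0.0223). The call of P3h1 held in 6 of 18 settings and that of P3h2 in 12, and single libraries ended each of the 3 calls. For Fkbp14 these were C26 library 4 and control library 1, for P3h2 C26 libraries 3 and 4 and control libraries 1 and 3, and for P3h1 every library but C26 library 3.

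Serpinh1, the collagen-specific chaperone HSP47, had 1508, 1281, 1161 and 1402 CPM in C26 libraries 1 to 4, against 1052, 1289, 1099 and 1090.0 CPM in control libraries 1 to 4. Control library 2 lay inside the C26 range, and Serpinh1 did not pass (log2 fold change 0.24 ± 0.0884, SE; edgeR adjusted p = 0.102). P4ha1, a subunit of the main prolyl 4-hydroxylase, had 150.4 ± 22.4 CPM in C26 tumours and 162 ± 19.8 CPM in control tumours (edgeR adjusted p = 0.564).

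In export, 2 of 8 genes rose, Sec23a and Sec24d, which encode coat proteins of the vesicles that carry procollagen out of the endoplasmic reticulum. Sec23a had 69.1 ± 5.27 CPM in C26 tumours and 53.5 ± 2.24 CPM in control tumours (SD, n = 4 each; edgeR adjusted p = 0.00894), and Sec24d had 121 ± 15 CPM in C26 tumours and 94.7 ± 5.34 CPM in control tumours (edgeR adjusted p = 0.0197). The call of Sec24d ended without C26 library 4, control library 1 or control library 2. Of 5 tested genes for removal of the propeptides, Bmp1, the C-propeptidase, rose to 202 ± 31.3 CPM in C26 tumours, against 160.2 ± 10.4 CPM in control tumours (edgeR adjusted p = 0.0449). The Bmp1 groups overlapped, and leaving out either C26 library 1 or 4 or any control library ended its call.

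None of the 8 tested receptor genes passed in edgeR, with 2 higher and 0 lower at an unadjusted p under 0.05, and 1 passed in each of DESeq2 and limma-voom. Over all tested genes 13.1% were higher and 12.4% lower at that unadjusted p in edgeR. Ddr2, a receptor tyrosine kinase for fibrillar collagen, had 291 ± 40.9 CPM in C26 tumours and 234 ± 23.1 CPM in control tumours (SD, n = 4 each; edgeR adjusted p = 0.0657). Of 10 tested breakdown genes, Mmp2, a gelatinase, and Timp3, a protease inhibitor held in the matrix, rose. Mmp2 had 92.2, 90.2, 115 and 140.1 CPM in C26 libraries 1 to 4, against 71.5, 57, 77 and 62.7 CPM in control libraries 1 to 4 (log2 fold change 0.71 ± 0.144, SE; edgeR adjusted p = 0.0172), without overlap. Without control library 4 its adjusted p was 0.0505. Timp3 was low, at 1 to 1.61 CPM in C26 tumours and 0.424 to 0.726 CPM in control tumours (edgeR adjusted p = 0.0373), and its call held in 8 of 18 settings, among single libraries only without C26 library 1 or control library 4. Mmp14, the membrane protease that activates Mmp2, had 188 ± 23 CPM in C26 tumours and 184 ± 17 CPM in control tumours (edgeR adjusted p = 0.87).

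**Figure D5:**
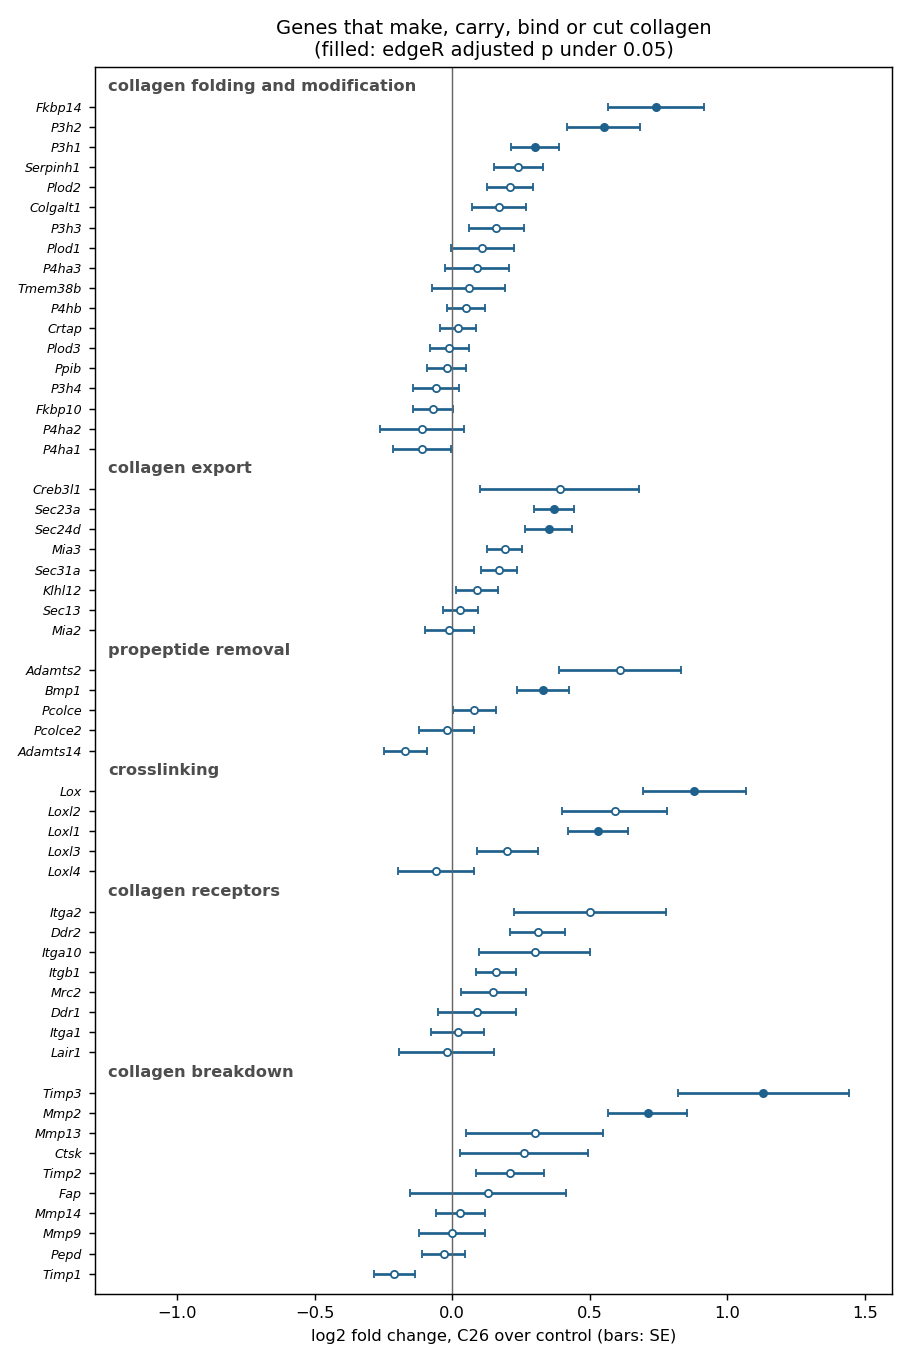
Log2 fold change (C26 over control, bars are the SE) of the 54 tested genes that make, export, trim, crosslink, bind or cut collagen, by list, with genes past an edgeR adjusted p of 0.05 filled. The 10 filled genes all lie above 0, and most other genes lie within 0.4 of 0.

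Collagen transcripts are long and rich in G and C, properties that can shift counts between libraries of unequal RNA quality. The 30 tested members had a median transcript of 6024 bases and a median GC content of 56.3%, against 2699 bases and 49.8% for the other tested genes. With offsets fitted for length and GC content in each library, 3 of the 6 calls remained (Col5a1, Col5a3 and Col4a1), against 1.16% of all tested genes then called higher. Scaled by total library size, 11 passed, while the share of all tested genes called higher was 9.74%.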

How the data were processed

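Messenger RNA was measured by RNA-seq in 8 libraries from tumour tissue, with strand-marking paired-end libraries per the labels' protocols and the series design. The authors deposited whole-number counts per Ensembl gene. The submitters' processing notes name Trim Galore 0.6.7, HISAT2 2.2.1, featureCounts 2.0.1 and mm10, whereas the design text names Cutadapt, STAR and RSEM; the table does not show which of these made it, and neither the gene annotation, the use of strand nor the treatment of multi-mapping reads is stated.

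The members, classes and lists were chosen with earlier results of these data known. Symbols, coordinates and lengths came from GENCODE M21 on GRCm38 (mm10), and 52073 of 56691 identifiers had a symbol. Counts were filtered with filterByExpr (15755 genes kept), scaled by TMM and tested two-sided in edgeR 4.0.16 (quasi-likelihood, robust, group as the sole term; R 4.3.3), with Benjamini-Hochberg adjustment over all tested genes and a threshold of 0.05. CPM and SD are over 4 libraries per group. Chain ratios used a pseudocount of 0.5 and an exact permutation test. No same-group pair of libraries agreed within sampling noise (lowest chi-square per degree of freedom 6.15). The scripts were tested on simulated data. Promoters came from RefSeq (GRCm38.p6).

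Named genes were every called member, the 3 highest of each class, 10 fixed chains, called pathway members (at most 6 a list), Serpinh1, P4ha1, Lox, Ddr2, Mmp14 and at most 3 markers a list. Other genes were chosen after their values were seen. Alternatives were RLE factors, total library size, no filter, 1 CPM in 4 libraries, DESeq2 1.42.0, limma-voom (limma 3.58.1), the replicate number as a block, a muscle covariate, length and GC offsets, and left-out libraries.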

Additional observations from a re-analysis of the deposited data

Results flagged for a closer look

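Of 94 groups of 4 libraries checked, 3 held a library far from the others by Dixon's criterion, the gap to the nearest library over the group's whole range. Chance alone flags about 1 in 20 groups. Col5a3 had its highest C26 value in library 4, at 565.1 CPM, and the nearest C26 library was at 456.5 CPM. Loxl1 had its lowest control value in library 4, at 32.9 CPM, and the nearest control library was at 36.5 CPM. Timp3 had its highest C26 value in library 2, at 1.61 CPM, and the nearest C26 library was at 1.09 CPM.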

How the results depend on the processing

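The number of collagen chain genes called higher, 6 in the main comparison, is set here beside the share of all tested genes called higher, 3.64% in that comparison. It was 6 with RLE factors (3.34%), 7 with limma-voom (4.74%) and 11 with total library size (9.74%). It was 13 of 43 tested with no low-count filter (3.13%) and 9 of 25 tested with 1 CPM in 4 libraries (4.05%). It was 11 with DESeq2 (5.2%) and 12 of 32 tested without C26 libraries 2 and 3 (2.48%). It was 4 with the muscle covariate (0.444%) and 3 with the length and GC offsets (1.16%), and leaving out single libraries gave 4 to 9 (1.55% to 4.42%). No collagen chain gene was called lower in any of the 18 settings. Total library size moved the median log2 fold change of all genes up by 0.07, and 78.7% of all calls were then higher, against 46.9% with TMM. With the offsets 31.8% were higher. For the 54 tested pathway genes, 10 were called higher, against 17 with total library size, 2 with the muscle covariate and 4 with the offsets. Leaving out single libraries gave 3 to 10, the fewest being 3 when control library 1 was out, 4 when C26 library 4 was out and 6 when control library 2 was out. The count of pathway genes called lower was 0, and 1 with limma-voom. The cause of these shifts was not tested.

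Whether the replicate numbers pair the libraries was not tested. Same-numbered deviations correlated at -0.023, 0.135, -0.019 and 0.093, and 4 of 8 libraries were matched best by their own number. The replicate block gave 9 collagen chain genes called higher, adding Col1a1, Col1a2 and Col4a2, with 3.35% of all tested genes called higher, and 7 pathway genes. Members under about 1 CPM rest on few reads, so differences in the 14 genes left out of the main test may go unseen at this depth. The fit with no low-count filter, which tested 43 members, called none of these 14.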
